A study of Homo sapiens with 2 samples.

Results

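Amino acid transporters are membrane proteins that carry amino acids across the plasma membrane and the membranes of lysosomes, and 41 protein-coding genes of the families SLC1, SLC3, SLC7, SLC36, SLC38 and SLC43 were examined here, of 20033 protein-coding genes in all. They were chosen by symbol alone, as every protein-coding gene named with 1 of these 6 family stems, and a peak was given to a gene when its summit lay within the gene's RefSeq span on hg38. This gave 66 of the 39801 peaks of the series. The data come from wild-type HCCLM3, an established human hepatocellular carcinoma line, and consist of 1 library of RNA captured with an antibody to N6-methyladenosine (m6A), called RIP, and 1 library of the input RNA from the same line. Neither group had a replicate, no treatment or genetic change is given in the labels, and every difference between genes or regions is therefore a description of these libraries with no replicate check. The series concerns CRTC2 and YTHDF2, a cytoplasmic m6A reader, in liver cancer cells.

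The families divide the work of amino acid uptake. SLC3 members are single-pass heavy chains that bring a partner from the SLC7 family to the cell surface, and the SLC7 family holds both these partners, which exchange large neutral, cationic or acidic amino acids, and stand-alone carriers of arginine and lysine. SLC1 members carry glutamate or small neutral amino acids such as glutamine with sodium, and SLC38 members move glutamine and other small neutral amino acids. The SLC36 family includes proton-coupled carriers, some of them found on lysosomes, and SLC43 members include facilitative carriers of large neutral amino acids. Their mRNAs matter in liver cells because glutamine, leucine, arginine and cystine supply feeds protein synthesis, glutathione and the nutrient sensor mTORC1. The m6A mark is placed on mRNA mostly in long exons and near the stop codon and in the 3' UTR, where reader proteins bind it.

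A peak is a stretch in which RIP exceeded input by the authors' peak caller. Its fold compares the RIP level at the summit, scaled to the input library, with the caller's input level for that summit. Each level was increased by 1 before the ratio was taken. That input level is not a count of input fragments at the summit, since it need not be whole and its lowest value was 0.246. The number of RIP fragments at each summit and the input level, in fragments, were recovered here from the fold and the p-value, and each fold is given with an exact 95% Poisson interval that covers counting error of the RIP fragments only. The threshold used below is a q-value under 0.05, because the deposited list reaches down to peaks resting on 2 or 3 fragments. Over the whole list the median was 9 fragments and the median fold 3.33. A gene without a peak has no value in these data, so it cannot be told apart from a gene with little RNA.

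Of the 41 transporter genes, 22 (53.7%) held a peak, beside 49.3% of all protein-coding genes. At a q-value under 0.05 the count was 20 (48.8%, Wilson 95% interval 34.3 to 63.5), beside 39% of protein-coding genes, and 15 genes had a peak with a q-value below 1e-5, beside 28.5%. A peak of at least 4-fold was held by 13 genes, beside 30.9% of protein-coding genes. These shares lie close to the background and were not matched on expression. The transporter genes are also longer, with a median span of 46958 bases against 24130 bases for protein-coding genes. Among the 306 genes of the other SLC families, 52.0% held a peak, and 38.6% did so at the same q-value threshold.

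The median over genes of the highest fold was 4.55 for the 22 transporters with a peak (binomial interval of the median 3.25 to 7.25), 4.76 for the other SLC genes and 4.73 for all protein-coding genes with a peak. Of the 66 transporter peaks, 43 (65.2%, 53.1 to 75.5) had a q-value under 0.05, beside 53.7% of the 30219 peaks in protein-coding genes, and 26 had one under 1e-5, beside 29.5%. The median peak rested on 21.5 RIP fragments in the transporters and on 12 in protein-coding genes, over median input levels of 2.0 and 1.0. Among peaks at a q-value under 0.05 these medians were 33 fragments in the transporters and 29 in protein-coding genes, and the median fold was 3.97 in the transporters and 4.60 in protein-coding genes.

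**Figure D1:**
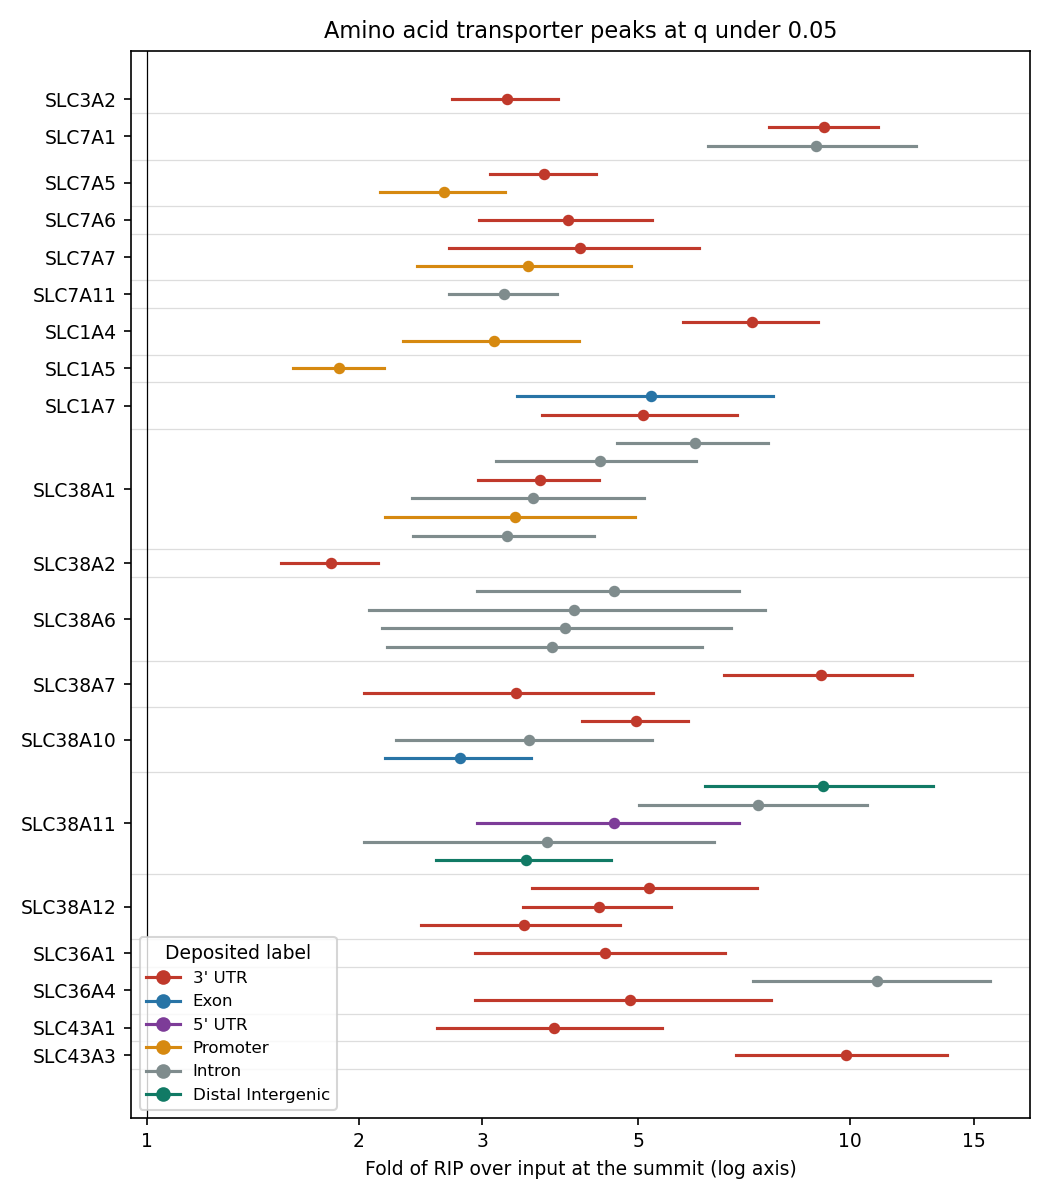
Fold of RIP over input at the summit (log axis) for the 43 transporter peaks at a q-value under 0.05, grouped by gene and family, with exact 95% Poisson intervals as lines and the deposited region label as colour. Folds run from 1.83 in SLC38A2 to 10.9 in SLC36A4, and in most of the 16 genes with a 3' UTR peak it is the highest or the lone peak.

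Most of the transporter genes with a peak at a q-value under 0.05 held a peak in the 3' UTR, beside peaks elsewhere in several of them. Of the 20 genes with a peak at a q-value under 0.05, 16 (80.0%, interval 58.4 to 91.9) held one labelled 3' UTR, against 53.4% of such genes in the other SLC families and 52.2% of such protein-coding genes. By peaks, 19 of 43 (44.2%, 30.4 to 58.9) were labelled 3' UTR, against 30% in the other SLC families and 27.6% in protein-coding genes. Exon labels were few, at 2 of 43 peaks (4.65%, 1.28 to 15.5), against 12.2% in the other SLC families and 24.2% in protein-coding genes. Promoter labels made up 11.6% and intron labels 32.6% of the transporter peaks, against 18% and 27.1% in protein-coding genes. These intervals treat peaks as independent although several share a gene, and no test was made of the differences.

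**Figure D2:**
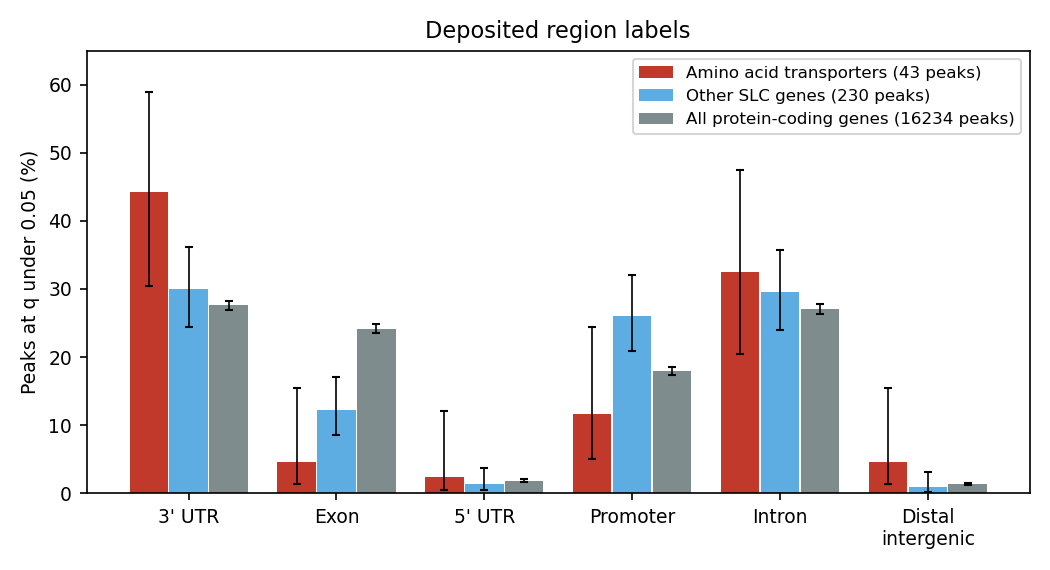
Share of peaks at a q-value under 0.05 by deposited region label (percent, bars from 0) in amino acid transporters, in the other SLC genes and in all protein-coding genes, with 95% Wilson intervals as error bars. The 3' UTR bar of the transporters stands at 44.2% and their exon bar at 4.65%.

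Position within the gene, from its strand and span, gave a similar arrangement. Most of the peaks counted this way carry the 3' UTR label, so the position is not separate support. Of 42 transporter peaks at a q-value under 0.05 in genes of known strand, 21 (50%, 35.5 to 64.5) had their summit in the last 10% of the gene span, against 28.9% in the other SLC genes and 28.6% in protein-coding genes, where a summit in several genes counts once for each. By genes, 15 of 19 transporters (78.9%) had such a peak, against 49.2% of protein-coding genes. The last 10% of a longer gene is a longer stretch, and the shares were not matched on span.

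**Figure D3:**
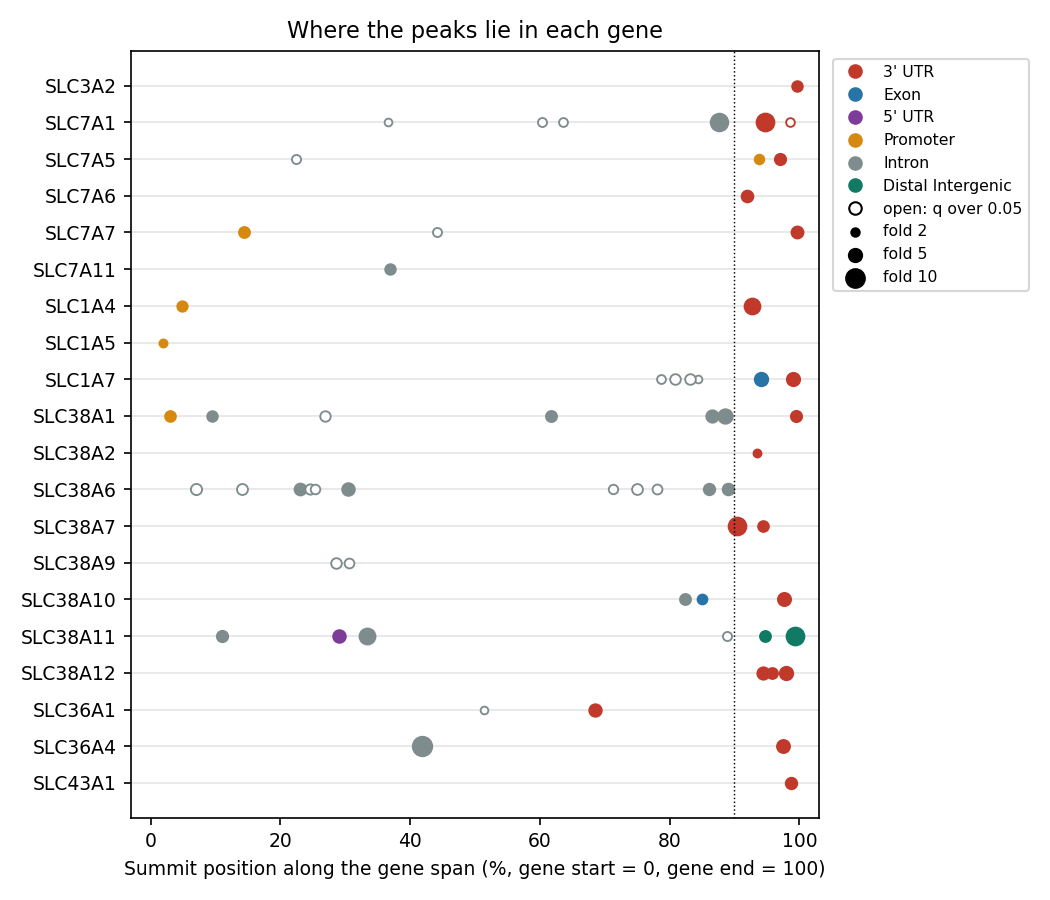
Summit position of the transporter peaks along the gene span (percent, from gene start to gene end) in the 20 genes with a peak and a known strand. Colour gives the deposited label, circle area the fold, open circles a q-value over 0.05, and the dotted line marks the last 10% of the span, which holds 21 of the 42 filled circles.

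The heavy chains came first in the order of roles, and the pair was split. SLC3A2, the heavy chain of the surface antigen CD98 and partner of several SLC7 carriers, had 1 peak, in its 3' UTR at chr11:62888610-62888991, with 130 RIP fragments over an input level of 25.0 and a fold of 3.25 (2.72 to 3.85). Its summit lay 105 bases from the end of the gene. SLC3A1, the heavy chain of the kidney and intestinal cystine carrier, had no peak.

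Among the SLC7 carriers that pair with SLC3A2, those for leucine and cystine had well-covered peaks of modest fold. SLC7A5, the leucine exchanger LAT1, had 2 peaks at a q-value under 0.05, both near its 3' end. The 3' UTR peak at chr16:87830870-87831471 had 130 fragments over an input level of 22.0, a fold of 3.67 (3.07 to 4.35). The neighbouring peak at chr16:87832321-87832786 had 93 fragments over 21.9, a fold of 2.65 (2.15 to 3.23). It carries a promoter label although its summit lay 37049 bases downstream of the SLC7A5 start and 2435 bases from the gene's end; the deposited table sets it against the start of the microRNA gene MIR6775. The remaining SLC7A5 peak, in intron 1 of 9, had a fold of 2.39 at a q-value of 0.798. Its 11 fragments are the closer of 2 whole numbers that met its fold and p-value.

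SLC7A11, the cystine and glutamate exchanger xCT that supplies cysteine for glutathione, differed in place from SLC7A5 and SLC3A2. Its lone peak lay in intron 6 of 11 at chr4:138213348-138213673, with 124 fragments over an input level of 24.0 and a fold of 3.22 (2.69 to 3.83). That input level is far above the median of 1.0 for intron peaks at a q-value under 0.05 in protein-coding genes. No peak lay in its 3' UTR.

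The y+L exchangers, which trade cationic for neutral amino acids, had lighter peaks. SLC7A6 had 1, a 3' UTR peak at chr16:68298596-68299020 with 48 fragments over 7.0 and a fold of 3.97 (2.96 to 5.23); its summit also lies within SLC7A6OS on the opposite strand, and since the table gives no strand for a peak, the RNA could come from either gene. SLC7A7 had a 3' UTR peak at chr14:22773182-22773504 with 22 fragments over 2.66 and a fold of 4.13 (2.69 to 6.11). A second SLC7A7 peak, labelled promoter, at chr14:22812848-22813210, had 31 fragments over 5.0 and a fold of 3.48 (2.42 to 4.87), with its summit 2370 bases downstream of the nearest SLC7A7 start. SLC7A8 (LAT2) and SLC7A10 (asc-1), further partners of SLC3A2, had no peak, and neither had SLC7A9 or SLC7A13, the partners of SLC3A1.

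The cationic carrier SLC7A1 (CAT-1), the main arginine and lysine uptake route of many cells, had the peak of the highest −log10 p among the 66. Its 3' UTR peak at chr13:29513597-29514446 had 123 RIP fragments over an input level of 7.70 and a fold of 9.19 (7.66 to 10.9), and its −log10 p of 50.2 ranked 98 among the 9879 protein-coding genes with a peak. A peak of like fold lay in intron 8 of 12 at chr13:29519866-29520201, with 33 fragments over 1.48 and a fold of 8.94 (6.28 to 12.4). The 4 other SLC7A1 peaks had a q-value over 0.05. One of these was a further 3' UTR peak with 20 fragments and a fold of 2.19 (1.40 to 3.29), and the other 3 lay in introns on 2 or 3 fragments each. The related SLC7A2, SLC7A3, SLC7A4 and SLC7A14 had no peak.

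In the SLC1 family, the neutral amino acid carriers differed among themselves. SLC1A4 (ASCT1), a carrier of alanine, serine and cysteine, had a 3' UTR peak at chr2:65020972-65021894 with 80 fragments over 6.22 and a fold of 7.25 (5.78 to 8.99). Its promoter-labelled peak at chr2:64990105-64990426 had 47 fragments over 9.0 and a fold of 3.12 (2.32 to 4.11), with the summit 765 bases downstream of the nearest SLC1A4 start. The intervals of these 2 peaks do not overlap.

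SLC1A5 (ASCT2), the glutamine carrier often studied in tumours, had the highest RIP count and the highest input level of the 66 peaks, but the second lowest fold of the 43 at a q-value under 0.05. Its 1 peak, labelled promoter at chr19:46787609-46788409, had 177 fragments over an input level of 60 and a fold of 1.88 (1.61 to 2.17). The summit lay 258 bases downstream of the gene's start, so within the transcribed part. No peak lay in its 3' UTR.

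Of the 5 glutamate carriers of this family, which clear glutamate in brain and retina, SLC1A7 (EAAT5) had peaks at a q-value under 0.05. Its 3' UTR peak at chr1:53087268-53088135 had 38 fragments over 4.0 and a fold of 5.08 (3.65 to 6.89), and exon 8 of 11 at chr1:53090318-53090834 had 21 fragments over 1.78 and a fold of 5.21 (3.36 to 7.78). The 4 other SLC1A7 peaks all lay in intron 5 of 10, on 2 to 5 fragments each and with q-values over 0.05. SLC1A2 (EAAT2) had 1 peak, on 3 fragments in exon 10 of 11, at a q-value of 1. SLC1A1, SLC1A3 and SLC1A6 had no peak.

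The SLC38 family held the most peaks, 35 of the 66 in 8 of its 12 genes, and 24 of the 43 at a q-value under 0.05. SLC38A2 (SNAT2), a carrier of small neutral amino acids that cells induce when starved of them, resembled SLC1A5 in its values. Its 3' UTR peak at chr12:46358908-46359209 had 155 fragments over an input level of 54.0 and a fold of 1.83 (1.55 to 2.13), the lowest of the 43.

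SLC38A1 (SNAT1), a glutamine carrier encoded on the same chromosome, had 6 peaks at a q-value under 0.05, the most of the 41 genes, and they were spread over the whole gene. The 3' UTR peak at chr12:46183306-46183614 had 100 fragments over 17.0 and a fold of 3.62 (2.96 to 4.39). The highest fold was in the last intron, 16 of 16, at chr12:46192637-46194054, with 64 fragments over 6.0 and a fold of 6.01 (4.66 to 7.63). A second peak of the same intron, at chr12:46194322-46195241, had 36 fragments over 4.47 and a fold of 4.41 (3.14 to 6.03). Intron 5, at chr12:46215907-46216209, had 26 fragments over 4.0 and a fold of 3.54 (2.38 to 5.09). Intron 1, at chr12:46260703-46261124, had 44 over 8.0 and a fold of 3.25 (2.39 to 4.32). A further intron 1 peak had a fold of 3.15 at a q-value of 0.0713.

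The sixth SLC38A1 peak, labelled promoter, was the only one of the 66 found to reach into the promoter window of its own gene, which runs from 250 bases before to 50 after a transcript start. It covered chr12:46266327-46266622 with 22 fragments over 3.52 and a fold of 3.34 (2.18 to 4.95), and its summit lay 74 bases downstream of the transcript start at 46266516. That transcript start lies inside the SLC38A1 span, whose own start is 2601 bases upstream of the summit. Bases just upstream of the inner start could thus be transcribed from the outer one, which was not tested. The 106 bases upstream of the inner start that lie under the peak are printed because they are the stretch of promoter sequence that a transporter peak covers. They were taken from RefSeq (GRCh38.p14, chr12:46266517-46266622, minus strand, 5′ to 3′):
SLC38A1 upstream stretch: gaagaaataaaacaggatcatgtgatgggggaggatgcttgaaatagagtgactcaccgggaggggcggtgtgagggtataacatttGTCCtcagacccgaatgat
The motif searched was GGAC, the core of the sequence most often methylated, on both strands; capitals mark its reverse complement GTCC, found once, and GGAC itself is not in these letters. In the same stretch of all 35116 promoter windows, 32.2% hold GGAC and 31.9% hold GTCC.

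SLC38A7 (SNAT7), a lysosomal exporter of glutamine and asparagine, had a strong 3' UTR peak at chr16:58666577-58667379, with 41 fragments over 2.0 and a fold of 9.10 (6.63 to 12.2). The adjoining 3' UTR peak at chr16:58666046-58666358 had 16 fragments over 2.37 and a fold of 3.34 (2.04 to 5.25). SLC38A9, the lysosomal arginine sensor that signals to mTORC1, had 2 peaks in intron 1 of 13, on 4 and 5 fragments, neither at a q-value under 0.05.

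SLC38A10 had 3 peaks at a q-value under 0.05, all towards the 3' end of the gene. The broadest peak of the 66, 2145 bases in its 3' UTR at chr17:81244832-81246976, had 130 fragments over 16.0 and a fold of 4.96 (4.16 to 5.88). Exon 13 of 16, at chr17:81252034-81252504, had 68 fragments over 15 and a fold of 2.79 (2.18 to 3.52), and intron 11 of 15, at chr17:81253586-81254121, had 21 fragments over 3.14 and a fold of 3.50 (2.26 to 5.22). SLC38A12, long known as TMEM104, had 3 peaks side by side in its 3' UTR, from chr17:74836055-74836700 (67 fragments over 9.0, fold 4.40, 3.43 to 5.56) through chr17:74836853-74837366 (36 over 6.0, fold 3.44, 2.45 to 4.71) to chr17:74837781-74838663 (28 over 2.66, fold 5.18, 3.53 to 7.36). The intervals of these 3 overlap.

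SLC38A11, a little-studied member, had 5 peaks at a q-value under 0.05. The strongest, at chr2:164894477-164895058, had 27 fragments over 1.0 and a fold of 9.16 (6.21 to 13.1), and it is labelled distal intergenic in the deposited table although it lies 416 bases inside the RefSeq end of the gene. A second peak with that label, at chr2:164897362-164897798, had 47 fragments over 8.0 and a fold of 3.46 (2.57 to 4.57). Intron 6 of 10, at chr2:164934931-164935324, had 27 fragments over 1.48 and a fold of 7.39 (5.01 to 10.6). The 5' UTR peak at chr2:164937669-164937965 had 20 fragments over 2.0 and a fold of 4.61 (2.95 to 6.94). Intron 2, at chr2:164948643-164948984, had 10 fragments over 1.0 and a fold of 3.71 (2.04 to 6.40).

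SLC38A6 held the most peaks of the 41 genes, 11, and every one was an intron peak. Their median was 8 fragments, beside 6 over all intron peaks in protein-coding genes. They fell in a group of 6 in intron 3 of 16 and a group of 5 in intron 15 of 16. The fragments ran from 5 to 20 and the folds from 2.57 to 4.61. The 4 at a q-value under 0.05 were split evenly between the groups. In intron 3, the peak at chr14:61012262-61013510 had 20 fragments over 2.0 and a fold of 4.61 (2.95 to 6.94), and the one at chr14:61004465-61005175 had 7 over 0.355 and a fold of 4.05 (2.07 to 7.57). In intron 15, the peak at chr14:61069270-61069604 had 13 fragments over 1.48 and a fold of 3.77 (2.19 to 6.15), and the one at chr14:61072306-61072653 had 10 over 0.888 and a fold of 3.93 (2.16 to 6.78). The intervals of these 4 overlap. None had a q-value under 1e-5, and no exon or 3' UTR peak was found. Without SLC38A6 the share of intron labels over all transporter peaks was 43.6%, against 53.0% with it. SLC38A3, SLC38A4, SLC38A5 and SLC38A8 had no peak.

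In the SLC36 family, SLC36A4 (PAT4) had the highest fold of the 66 peaks. It lay in intron 6 of 10 at chr11:93175209-93176465, with 25 fragments over an input level of 0.562 and a fold of 10.9 (7.28 to 15.8), which ranked 418 among the 9879 protein-coding genes with a peak. Its 3' UTR peak at chr11:93145396-93145696 had 15 fragments over 1.18 and a fold of 4.86 (2.92 to 7.73). SLC36A1 (PAT1), a lysosomal carrier, had a 3' UTR peak at chr5:151489086-151489717 with 22 fragments over 2.37 and a fold of 4.49 (2.92 to 6.64). That summit lay 66716 bases before the end of the RefSeq span. SLC36A1 also had an intron peak on 2 fragments at a q-value of 1. SLC36A2 and SLC36A3 had none.

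In the SLC43 family, SLC43A3, which carries purine nucleobases and so belongs here by name, not by substrate, had the second highest fold of the 66, 9.86 (6.89 to 13.7), in its 3' UTR at chr11:57407448-57407815 with 32 fragments over 1.18. SLC43A1 (LAT3), a carrier of large neutral amino acids, had a 3' UTR peak at chr11:57484789-57485117 with 28 fragments over 4.0 and a fold of 3.79 (2.59 to 5.39). SLC43A2 (LAT4) had no peak in its span. The deposited table names it for 2 peaks on an alternative contig of chromosome 17, of which the one in exon 5 of 10 had 9 fragments and a fold of 5.44 (2.92 to 9.60) at a q-value of 0.000195, and the one in the 3' UTR 4 fragments and a q-value of 0.582. Such contigs repeat sequence of the main chromosome, and reads can be shared between the copies.

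Among the transporter peaks at a q-value under 0.05, fold and input level moved in opposite directions. The threshold keeps a peak of low input level only where its fold is high, so the selection itself favours this direction. The 23 transporter peaks at a q-value over 0.05 had a median input level of 0.326 and a median fold of 2.57. The split at an input level of 20 was chosen after the values were seen. The 6 peaks of SLC1A5, SLC38A2, SLC3A2, SLC7A11 and SLC7A5 above it had 93 to 177 RIP fragments and folds of 1.83 to 3.67. The 37 other peaks at a q-value under 0.05 had a median of 28 fragments and folds of 2.79 to 10.9. In protein-coding genes the 877 peaks above that level had a median fold of 2.61 and none exceeded 5.14, whereas those below it had a median of 4.67. Spearman's rho between fold and input level was −0.61 over the 43 transporter peaks and −0.43 over the 16234 peaks of protein-coding genes, given as a description, since fold has the input level in its denominator and the peaks share the same 2 libraries.

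**Figure D4:**
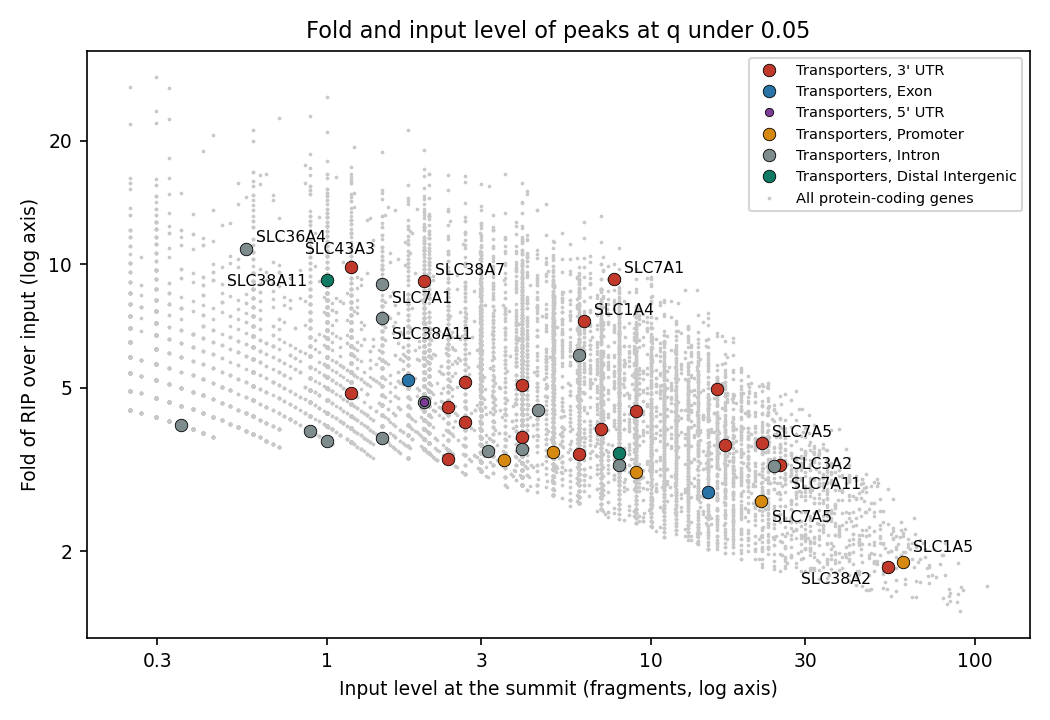
Fold of RIP over input against the recovered input level (both axes log) for transporter and protein-coding peaks at a q-value under 0.05. The 43 transporter peaks are coloured by deposited label, over the 16234 peaks of protein-coding genes in grey. SLC1A5 and SLC38A2 sit at input levels of 60 and 54.0 with folds under 2, and SLC36A4 at an input level of 0.562 has the highest transporter fold; the small 5' UTR point lies on an SLC38A6 intron point of equal values.

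The gene names of the deposited table often differed from the gene that holds the peak. Of the 66 peaks it named the transporter for 28 (42.4%) and another gene for 38, in 13 transporter genes. For peaks in protein-coding genes the named gene held the summit in 59.9%, counting a match to any gene where several hold it. All 6 SLC1A7 peaks are listed under PODN, all 11 of SLC38A6 under TRMT5, all 3 of SLC38A12 under GRIN2C and all 3 of SLC38A10 under NDUFAF8. The SLC7A1 3' UTR peak is listed under MTUS2-AS1 and that of SLC43A3 under PRG2. The region labels that name a transcript gave the transporter for all 38 exon and intron peaks. In the other direction, 26 of the 54 peaks listed under a transporter lie outside its span. Of these, 11 are intergenic, and 10 are listed under SLC38A4, with 7 of the 10 in introns of SLC38A4-AS1. The 3' UTR peak listed under SLC38A8 (fold 6.83, 5.39 to 8.56) lies in MBTPS1, and the one listed under SLC38A7 (3.44, 2.59 to 4.47) in GOT2, a mitochondrial aspartate aminotransferase gene.

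Other genes of amino acid supply were counted in the same way. Of 30 further amino acid transporters outside the 6 families, 15 held a peak and 9 (30%) passed that threshold, with a median highest fold of 3.38, beside 49.3%, 39% and 4.73 in protein-coding genes. The highest were SLC66A1, a lysosomal exporter of cationic amino acids (intron, 9.20, 6.49 to 12.7), SLC25A44, a mitochondrial carrier of branched-chain amino acids (promoter label, 7.74, 6.36 to 9.33), the mitochondrial aspartate and glutamate carrier SLC25A13 (intron, 5.18, 3.94 to 6.70) and SLC25A29 (3' UTR, 5.11, 4.10 to 6.29). SLC6A5, SLC6A7, SLC6A14 and SLC6A15 were among the 15 without a peak.

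Of 40 genes of amino acid sensing and the response to amino acid shortage, 29 (72.5%) held a peak, beside 49.3% of protein-coding genes. The threshold was passed by 24 (60%), beside the 39% of protein-coding genes given above. The highest folds were in CHAC1, a glutathione-degrading enzyme (promoter label, 8.53, 6.48 to 11), KICS2 (3' UTR, 8.26, 5.94 to 11.2) and MIOS (3' UTR, 8.20, 5.43 to 12), both of complexes that relay amino acid levels to mTORC1, and EIF2AK4, the kinase that senses uncharged tRNA (exon 4 of 39, 6.78, 5.43 to 8.38). CASTOR1, LAMTOR1, LAMTOR2 and LAMTOR3 were among the 11 without a peak. Of 19 enzymes of glutamine, glutamate and glutathione metabolism, 10 (52.6%) held a peak and 9 (47.4%) passed the threshold, beside the same 49.3% and 39%. They were led by the glutathione hydrolase GGT1 (promoter label, 14.8, 10.8 to 19.8), the serine pathway enzyme PSAT1 (intron, 8.68, 6.61 to 11.2), ASNSD1 (5' UTR, 6.85, 5.33 to 8.67) and GCLC, the catalytic subunit of the first step of glutathione synthesis (3' UTR, 5.67, 4.33 to 7.30). The summits in GGT1 and ASNSD1 lie within another protein-coding gene as well. GLS2, GLUD1, GLUD2 and GCLM were among the 9 without a peak.

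The peak list can be set against the labelled cell type only in part, since it holds no expression level. Among the hepatocyte markers reported here, HNF4A, APOB and FGB held a peak at a q-value under 0.05. The 6 others, ALB, APOA1, APOA2, APOC3, TTR and SERPINA1, had no peak. The share of these markers with such a peak was near the 39% of protein-coding genes. Of 7 endothelial and stromal markers, 3 (42.9%; RGS5, PECAM1 and LUM) held one, beside 39% of protein-coding genes. Of 7 immune markers, 1 (14.3%) held a peak, at a q-value over 0.05, beside 49.3% of protein-coding genes with any peak. Marker lists this short, and with no expression level, do not tell the cell type from these peaks.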

How the data were processed

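One m6A-RIP and one input library of HCCLM3 cells were compared. Per the submitters' processing notes, HISAT2, MACS2 and hg38 were used; for versions, caller settings and duplicate removal the labels give nothing. A single annotated peak list was deposited. Its fold is a linear ratio, per the file headers. Its −log10 p-value and −log10 q-value columns have damaged headers and were identified from the deposited values: 99.99% of the deposited scores are 10 times the first, rounded down.

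Fragments were recovered by fitting whole numbers to fold and p-value (pseudocount 1, Poisson tail, scaling factor 0.642). Of 39801 peaks, 100% were met within 0.001 on the −log10 p scale, 98.2% by 1 whole number alone. All of 998 simulated peaks were recovered, but they were made with the same formula and factor, so this checks the solver only. By the scaling factor, the RIP library was 1.56 times the input. Total depth is not stated. Counted fragments carried no stated molecular identifiers, so PCR copies are not separated.

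Genes and spans came from RefSeq GRCh38.p14, strands from its promoter table and, failing that, the deposited table. Every member was accounted for, and all member peaks at a q-value under 0.05 are given with their values. Of each other list at most 4 genes of highest fold are named, then at most 4 lacking peaks, or all 6 for the hepatocyte markers. Members and lists were chosen with earlier results of these data known. No test was possible with 1 library per group. Python 3.11.15, pandas 2.3.3 and scipy 1.17.1 were used. Alternatives varied peak assignment, overlapping genes, intron peaks, q-value, fold, fragment number, the pseudocount and SLC38A6. 1 marker gene is not reported here.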

Additional observations from a re-analysis of the deposited data

How the results depend on the processing

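Of 42 recomputed values, 34 stayed within range of those reported, meaning within 1.5 times for counts and within the 95% interval for shares and the median fold; 8 did not. By the gene names of the deposited table, 25 transporter peaks had a q-value under 0.05 in place of 43. Leaving out intron and intergenic peaks gave 27, and a q-value under 1e-5 gave 26. With peaks at a q-value under 0.05 only, 44.2% were labelled 3' UTR and 32.6% intron, and under 1e-5 the shares were 46.2% and 26.9%, in place of 30.3% and 53.0% over all 66. A fold of at least 4 left 13 genes with a peak in place of 22. The alternatives without the pseudocount (median highest fold 6.79) and without SLC38A6 were chosen after seeing the data. No paired analysis was possible because each group had 1 library. Depth limits what a weak peak shows: 8 of the 66 rested on at most 3 RIP fragments, and a gene without a peak was not shown to lack m6A.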
